A study of Mus musculus with 6 samples.

Results

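Metallothioneins and the transporters that move zinc across hepatocyte membranes were followed through acetaminophen injury of mouse liver in 6 genes picked by name. These were the metallothionein genes *Mt1* and *Mt2*, the transcription factor gene *Mtf1*, the exporter genes *Slc30a1* and *Slc30a10* and the importer gene *Slc39a14*. They are 6 of the 55401 genes in the deposited table, and all 6 were among the 10051 genes with a mean of at least 1 FPKM (a level per transcript length and sequencing depth) over the libraries. Earlier results of these data were known when the 6 were picked, so their differences between groups are given as descriptions and carry no test.

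RNA with a poly(A) tail was sequenced as paired ends from livers of C57BL/6 mice in 6 libraries, 2 in each of 3 groups. COS+APAP mice received 20 mg/kg costunolide (COS, a sesquiterpene lactone of plants) 12 h and again 40 min before 400 mg/kg acetaminophen (APAP) given into the peritoneum, and their livers were taken 6 h after APAP (replicates 2 and 3). APAP mice received the same APAP dose and time without COS (replicates 1 and 3), and control mice were labelled as controls with no further treatment named (replicates 1 and 3). The labels used here give no vehicle for the APAP or control mice, no sex and no age, and do not state whether replicate libraries are different mice, so p-values measure only the spread between these libraries. The groups follow the titles, source names and treatment field. The protocol text gives COS to the samples numbered 5 and 6, which in accession order are APAP replicates 1 and 3. If that text were right, the COS+APAP and APAP names would change places and every difference between them its sign. Both COS+APAP titles carry the prefix 2 and the other 4 the prefix 1, so an effect of COS and a batch marked by that prefix cannot be told apart.

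Metallothioneins are small cysteine-rich proteins that bind zinc and copper and can take up cadmium and react with oxidants. In liver their genes are switched on by zinc through MTF1, a zinc-finger factor that binds metal response elements in their promoters, and also by glucocorticoids, interleukin 6 and oxidative stress. ZnT proteins of the Slc30 family carry zinc out of the cytosol and ZIP proteins of the Slc39 family carry it in. Of the ZnT proteins, ZnT1 (*Slc30a1*) exports zinc across the plasma membrane and is itself a target of MTF1, while ZnT10 (*Slc30a10*) is known mainly as an exporter of manganese. ZIP14 (*Slc39a14*) takes up zinc, manganese and iron not bound to transferrin, and its gene is induced in liver by interleukin 6.

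The promoters of 4 of the genes are printed because the results below set genes of MTF1 biology against each other. Each is the RefSeq window from 250 bases before to 50 bases after the annotated start site (GRCm38.p6, plus strand), and capitals mark the core of the metal response element, TGCACNC or TGCGCNC, searched on both strands.
*Mt2*, chr8:94172368-94172667: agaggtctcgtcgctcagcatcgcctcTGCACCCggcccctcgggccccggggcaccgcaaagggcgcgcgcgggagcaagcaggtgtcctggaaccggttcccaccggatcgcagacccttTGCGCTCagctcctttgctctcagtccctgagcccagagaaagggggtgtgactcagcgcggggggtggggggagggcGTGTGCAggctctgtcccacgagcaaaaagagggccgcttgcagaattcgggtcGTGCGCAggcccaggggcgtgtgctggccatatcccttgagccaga
*Mt1*, chr8:94178839-94179138: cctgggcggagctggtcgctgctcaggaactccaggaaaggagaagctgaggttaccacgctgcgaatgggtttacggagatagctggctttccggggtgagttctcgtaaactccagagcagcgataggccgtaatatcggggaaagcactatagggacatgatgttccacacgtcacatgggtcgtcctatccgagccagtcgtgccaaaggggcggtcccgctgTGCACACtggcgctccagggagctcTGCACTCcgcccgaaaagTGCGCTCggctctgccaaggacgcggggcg
*Slc30a1*, chr1:191906531-191906830: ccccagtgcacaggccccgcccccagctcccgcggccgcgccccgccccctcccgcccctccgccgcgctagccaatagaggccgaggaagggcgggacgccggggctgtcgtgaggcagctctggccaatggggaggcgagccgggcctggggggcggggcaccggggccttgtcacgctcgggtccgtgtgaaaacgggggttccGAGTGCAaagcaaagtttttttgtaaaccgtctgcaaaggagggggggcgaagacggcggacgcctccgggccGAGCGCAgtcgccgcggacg
*Slc30a10*, chr1:185454598-185454897: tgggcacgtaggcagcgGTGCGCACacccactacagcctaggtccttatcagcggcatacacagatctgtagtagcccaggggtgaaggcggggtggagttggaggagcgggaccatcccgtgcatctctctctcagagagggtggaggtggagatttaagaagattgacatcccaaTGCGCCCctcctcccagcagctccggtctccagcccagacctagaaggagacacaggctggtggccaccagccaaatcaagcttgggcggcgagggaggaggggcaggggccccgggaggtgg
The core occurred 4 times in the *Mt2* window, 3 times in that of *Mt1* and 2 times in that of *Slc30a1*. In the *Slc30a10* window it occurred 3 times, of which 2 overlap on opposite strands as a single capital stretch. The *Mtf1* window held none, and for *Slc39a14* no window was used here. Of all 32851 promoter windows of this length, 25.7% held the core at least 1 time, 7.11% at least 2 times, 1.97% at least 3 times and 0.517% at least 4 times. In *Mt1* all 3 matches lay within 30 bases of the RefSeq start site (positions -23 to -17, 3 to 9 and 21 to 27, the base at that site being 1). In *Mt2* they were spread from -223 to 11. These positions hold for the RefSeq start sites only. The *Mt2* gene of the deposited table starts at 94172664, near the end of the window, so all 4 matches lie upstream of it. Sequence beyond the windows was not searched, so the spacing in *Mt1* and *Mt2* cannot be compared from them. The core of the antioxidant response element, TGACNNNGC, at which NRF2 binds, occurred 1 time each in *Mt2* (-79 to -71) and *Slc30a1* (-82 to -74), overlapped no metal response element there, and occurred in 12.4% of all windows. A match of these letters is a description of the window, not a measured site.

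**Figure D1:**
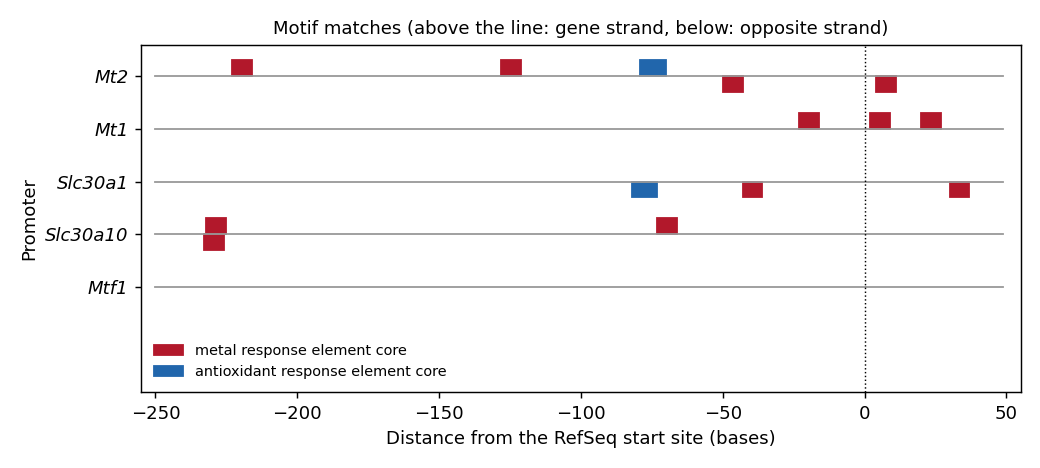
Matches of the metal response element core (red) and the antioxidant response element core (blue) in the promoter windows of 5 genes, by distance in bases from the RefSeq start site (dotted line), above the line for the gene's strand and below it for the opposite strand. *Mt2* holds 4 red matches, *Mt1* and *Slc30a10* 3, *Slc30a1* 2 and *Mtf1* none.

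*Mt2* (ENSMUSG00000031762, chromosome 8, 94172664 to 94173568, plus strand, 3 exons in its longest coding transcript in GENCODE M21) had the widest range of levels of the 6 genes. It had 1361 and 2219 FPKM in COS+APAP libraries 2 and 3, 2706 and 2911 FPKM in APAP libraries 1 and 3, and 5.68 and 8.99 FPKM in control libraries 1 and 3. All 4 libraries from mice given APAP stood far above both control libraries, and both COS+APAP libraries stood below both APAP libraries. Among all genes of a library, *Mt2* ranked 64 and 48 by FPKM in COS+APAP, 36 and 34 in APAP, and 4136 and 3003 in control. The mean was 2809 ± 145 FPKM in APAP and 7.34 ± 2.34 FPKM in control (SD, n = 2 each), a ratio of 383 and a fitted log2 fold change of 8.72 ± 0.42 (SE). Against control, COS+APAP (1790.4 ± 607 FPKM) had a fitted log2 fold change of 8.09 ± 0.41, and against APAP one of -0.63 ± 0.30. The COS+APAP libraries differed from each other 1.63-fold in *Mt2*, and 94.7% of the tested genes differed less between these libraries (difference of log2(FPKM + 1), median 0.135 over tested genes). The difference of COS+APAP from APAP stood at -1.03 without COS+APAP replicate 3 and at -0.31 without COS+APAP replicate 2, so that 1 library moved it by more than 1.5 times. The control values rest on 279 and 427 estimated counts, or about 70 and 107 fragments if 4 counts stand for a fragment.

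*Mt1* (ENSMUSG00000031765, chromosome 8, 94179082 to 94180327, plus strand) lies 5513 bases downstream of *Mt2* and had nearly the same shape. It had 1329 and 1682 FPKM in COS+APAP libraries 2 and 3, 1659 and 1745 FPKM in APAP libraries 1 and 3, and 12.3 and 13.5 FPKM in control libraries 1 and 3. COS+APAP and APAP overlapped, and both groups were far above control. The means were 1506 ± 249.7 FPKM in COS+APAP, 1702 ± 61.1 in APAP and 12.9 ± 0.891 in control (SD, n = 2 each). The fitted log2 fold change was 7.18 ± 0.21 for APAP over control, 7.02 ± 0.21 for COS+APAP over control and -0.16 ± 0.16 for COS+APAP over APAP. The last stood at 0.01 without COS+APAP replicate 2 and at -0.35 without COS+APAP replicate 3. On the fitted log2 scale, *Mt1* in COS+APAP reached 97.8% of its distance between control and APAP, and *Mt2* 92.8%.

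The balance of the pair differed between the groups. The ratio of *Mt2* to *Mt1*, in FPKM, was 1.02 and 1.32 in COS+APAP, 1.63 and 1.67 in APAP, and 0.463 and 0.665 in control. *Mt1* was thus the more abundant transcript per length in both control libraries and *Mt2* in the other 4. The 3 groups did not overlap in this ratio. Which gene of the pair leads depends on the length that FPKM divides by. Estimated counts per FPKM in APAP library 1 were 99.1 for *Mt1* and 46.8 for *Mt2*. In estimated counts *Mt1* stood above *Mt2* in every library, with 164353 against 126528 in APAP library 1. Their summed level was 2691 and 3902 FPKM in COS+APAP, 4365 and 4657 FPKM in APAP, and 17.9 and 22.5 FPKM in control. The transcripts of *Mt1* and *Mt2* in GENCODE M21 have no stretch of 31 identical bases in common, so reads of that length or more that match exactly belong to 1 of the pair.

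**Figure D2:**
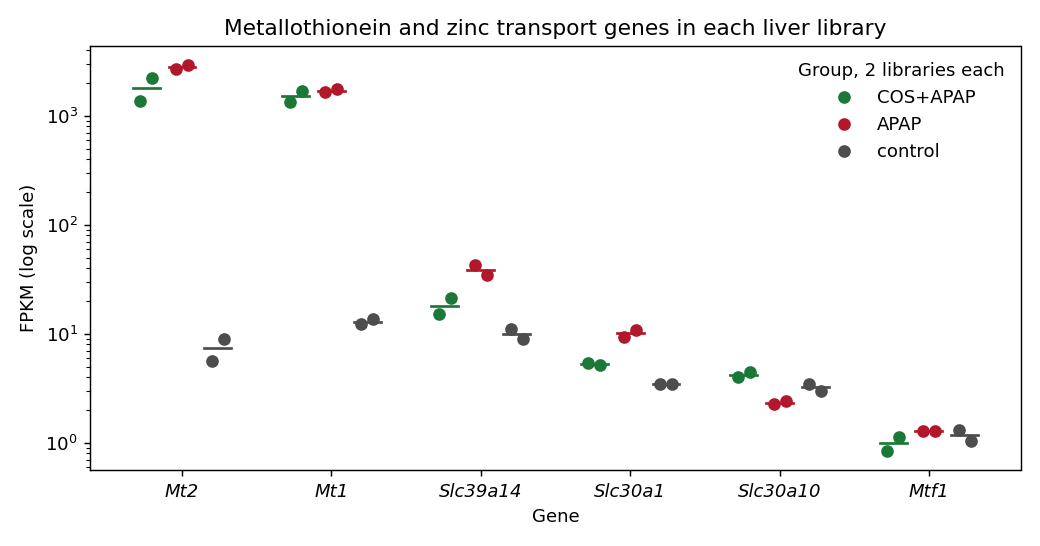
FPKM on a log scale of the 6 genes in each library (points) with the mean of each group (short lines), COS+APAP in green, APAP in red and control in grey, 2 libraries each. *Mt2* and *Mt1* lie at 1329 FPKM or more in all 4 libraries of mice given APAP and at 13.5 FPKM or less in control, *Slc39a14* and *Slc30a1* are highest in APAP, and *Slc30a10* is lowest there.

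*Gm45774*, an antisense gene on the minus strand that shares 749 bases of its span with *Mt2*, followed the same course. It had 52.0 and 57.1 FPKM in COS+APAP, 93.6 and 80.8 FPKM in APAP, and 0.23 and 0.27 FPKM in control, or 2.57% to 4.05% of the *Mt2* value of the same library. Of the 573 different stretches of 31 bases in *Mt2* transcripts, 330 also occur, on either strand, in those of *Gm45774*. The labels do not say that reads were counted by strand, so reads of *Mt2* and *Gm45774* in the overlap cannot be told apart. The other genes of the cluster were far lower. *Mt3*, a metallothionein known chiefly from brain, had 0.32 and 0.06 FPKM in COS+APAP, 0.7 and 1.38 FPKM in APAP, and was listed at 0 in control, and *Mt4*, known from stratified epithelia, had 0.62 and 0.98 FPKM in APAP and was listed at 0 in the 4 other libraries. *Mt3* and *Mt4* stayed under the filter and were not tested. The neighbour *Bbs2* upstream of the cluster had 0.73 and 0.79 FPKM in COS+APAP, 0.47 and 0.50 FPKM in APAP, and 0.60 and 0.69 FPKM in control.

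**Figure D3:**
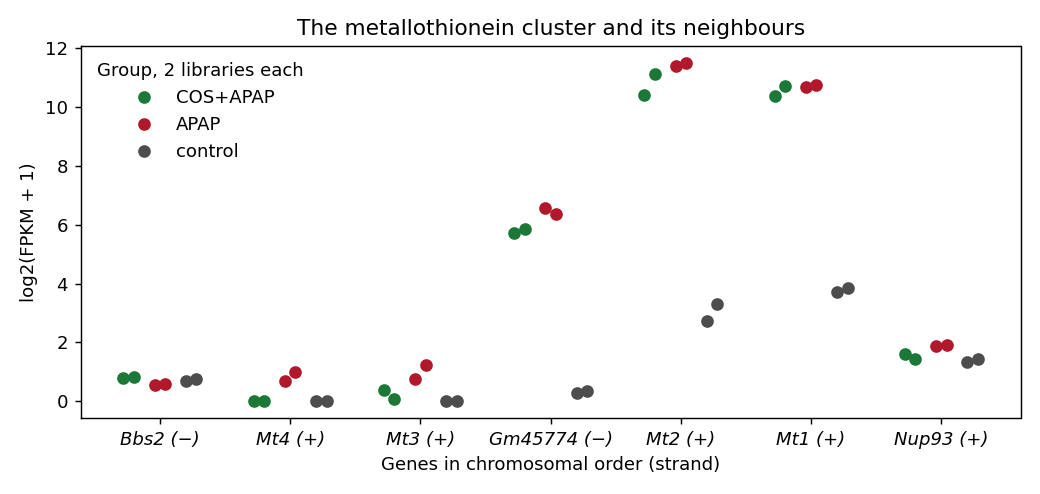
log2(FPKM + 1) of the metallothionein cluster and its neighbours *Bbs2* and *Nup93* in chromosomal order with the strand of each gene, 2 libraries (points) for each of COS+APAP (green), APAP (red) and control (grey). *Mt2*, *Mt1* and *Gm45774* stand high in both groups given APAP, while *Bbs2* and *Nup93* stay below 3 FPKM in all 6 libraries.

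*Slc30a1* (ENSMUSG00000037434, chromosome 1, 191906767 to 191913247, plus strand, 2 exons), the gene of the plasma membrane exporter ZnT1, was higher in APAP by less than the metallothioneins. It had 5.42 and 5.20 FPKM in COS+APAP, 9.33 and 10.8 FPKM in APAP, and 3.46 and 3.48 FPKM in control. The 3 groups did not overlap, with COS+APAP between the others. The fitted log2 fold change was 1.67 ± 0.12 for APAP over control, 0.77 ± 0.11 for COS+APAP over control and -0.90 ± 0.11 for COS+APAP over APAP. On that scale COS+APAP lay at 46.0% of the way between control and APAP.

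*Slc39a14* (ENSMUSG00000022094, chromosome 14, 70303469 to 70351425, minus strand, 10 exons in its longest coding transcript), the gene of the importer ZIP14, had the same order of groups. It had 15.2 and 21.1 FPKM in COS+APAP, 42.8 and 34.7 FPKM in APAP, and 11.0 and 8.88 FPKM in control, with no overlap between groups. The fitted log2 fold change was 2.10 ± 0.24 for APAP over control, 1.02 ± 0.23 for COS+APAP over control and -1.08 ± 0.23 for COS+APAP over APAP. COS+APAP lay at 48.7% of the way between control and APAP. Importer and exporter both stood higher in APAP than in control. The ratio of *Slc39a14* to *Slc30a1* in FPKM was 2.80 and 4.05 in COS+APAP, 4.59 and 3.22 in APAP, and 3.18 and 2.55 in control. In this ratio APAP lay above control only narrowly, with 3.22 in APAP library 3 against 3.18 in control library 1, and COS+APAP overlapped both groups.

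*Slc30a10* (ENSMUSG00000026614, chromosome 1, 185454848 to 185468762, plus strand, 4 exons), the gene of the manganese exporter ZnT10, ran the other way. It had 3.99 and 4.45 FPKM in COS+APAP, 2.25 and 2.39 FPKM in APAP, and 3.43 and 3.01 FPKM in control. Again the 3 groups did not overlap, but here APAP was lowest and COS+APAP highest. The fitted log2 fold change was -0.34 ± 0.13 for APAP over control, 0.54 ± 0.13 for COS+APAP over control and 0.88 ± 0.14 for COS+APAP over APAP. Its level relative to *Slc30a1* was 0.736 and 0.856 in COS+APAP, 0.241 and 0.222 in APAP, and 0.991 and 0.865 in control, so that the exporters were nearly level in control and ZnT1 transcripts were the more abundant per length in APAP.

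*Mtf1* (ENSMUSG00000028890, chromosome 4, 124802104 to 124849379, plus strand, 11 exons in its longest coding transcript), the gene of the metal-sensing factor, was the lowest of the 6 in every library. It had 0.84 and 1.13 FPKM in COS+APAP, 1.27 in both APAP libraries, and 1.3 and 1.03 FPKM in control. Control overlapped both other groups. The fitted log2 fold change was 0.26 ± 0.22 for APAP over control, -0.08 ± 0.22 for COS+APAP over control and -0.35 ± 0.22 for COS+APAP over APAP. The difference of COS+APAP from control stood at 0.12 without COS+APAP replicate 2 and at 0.10 without control replicate 1, and was negative without control replicate 3 (-0.25) or COS+APAP replicate 3 (-0.33). With 1 library left out, the other differences of *Mtf1* ranged from 0.10 to 0.45 for APAP over control and from -0.59 to -0.14 for COS+APAP over APAP. The protein-coding gene *1110065P20Rik* overlaps *Mtf1* on the opposite strand in 721 bases and had 3.03 and 4.76 FPKM in COS+APAP, 3.08 and 3.55 FPKM in APAP, and 1.72 and 3.29 FPKM in control. Reads in the overlap cannot be told apart without strand. The genes that overlap the exporters on the opposite strand, *1700034H15Rik* for *Slc30a1* and *Gm2061* for *Slc30a10*, stayed below 1 FPKM in all 6 libraries. Relative to the exporter in the same library, *1700034H15Rik* stood at 0.19% to 6.65%, but *Gm2061* at 13.48% to 32.23%. Reads in these overlaps cannot be told apart without strand either. Of the 5796 different stretches of 31 bases in *Slc30a10* transcripts, 518 also occur in other genes, 2728 in number.

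**Figure D4:**
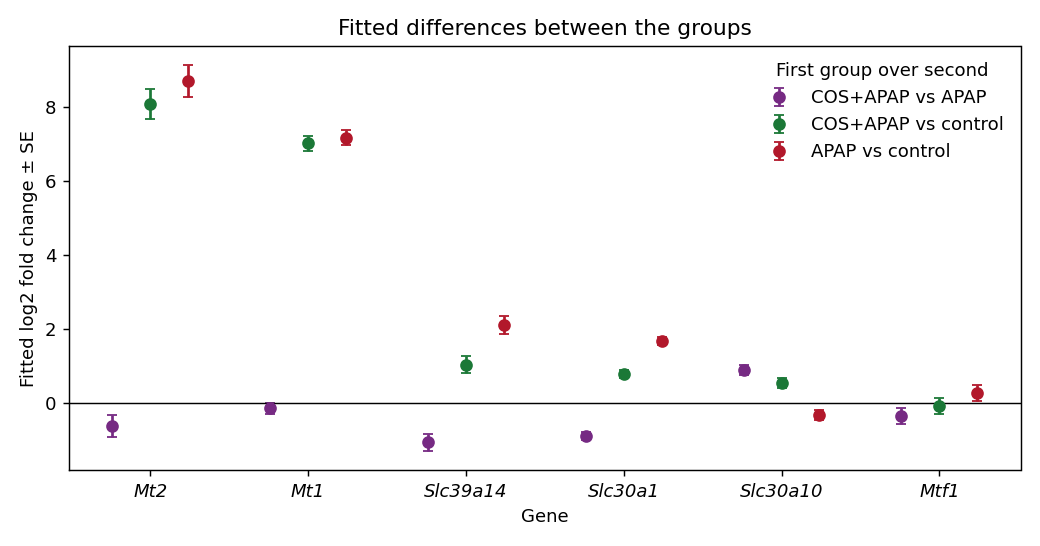
Fitted log2 fold changes with standard errors of the 6 genes for COS+APAP over APAP (purple), COS+APAP over control (green) and APAP over control (red). The metallothioneins differ from control by 7.02 to 8.72 on this scale and the transporters by at most 2.10, and *Slc30a10* alone is positive for COS+APAP over APAP and negative for APAP over control.

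By group ranges, 4 of the 6 genes were higher and 1 lower in APAP than in control with no overlap, where 76.2% of all tested genes did not overlap (32.1% higher and 44.1% lower). In COS+APAP 1 gene was higher and 4 were lower than in APAP without overlap, beside 68.5% of tested genes (33.3% higher and 35.3% lower), and 5 were higher than in control, beside 67.3% of tested genes (25.0% higher and 42.3% lower). The genes were picked with these contrasts in view and nothing is read from these counts. In control the order of levels in FPKM was *Mt1*, *Slc39a14*, *Mt2*, *Slc30a1*, *Slc30a10* and *Mtf1*, with *Slc39a14* and *Mt2* overlapping. In APAP and in COS+APAP it was *Mt2*, *Mt1*, *Slc39a14*, *Slc30a1*, *Slc30a10* and *Mtf1*, and *Mt2* overlapped *Mt1* in COS+APAP but not in APAP.

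Across the 6 libraries the log2(FPKM + 1) of *Mt1* and *Mt2* had a Pearson r of 0.998 with each other, and that of *Slc30a1* and *Slc39a14* one of 0.952. All such values rest on 3 groups of 2 libraries and describe the order of groups more than single libraries. Leaving out the 6 genes themselves, the tested genes most like *Mt2* were *Chtf8* (r = 0.999), *Gm45774* (0.998), *Chd9* (0.9955), *Pigm* (0.995) and *Man2a2* (0.994). For *Mt1* they were *Gm45774* (0.997), *Chd9*, *Nfkbib*, *Chtf8* and *Eif4ebp1* (0.995). The nearest to *Slc30a1* were *Slc7a5* (0.999), *2610001J05Rik* and *Srsf3*, and to *Slc39a14* they were *Tmem192* (0.999), *Sptlc2* and the pseudogene *Amd-ps3*. *Slc30a10* ran closest to the serum amyloid gene *Saa4* (0.995), which had 235 and 303 FPKM in COS+APAP, 29.2 and 31.8 FPKM in APAP, and 107 and 82.5 FPKM in control, followed by *Caml* and *Pum3*. *Mtf1* ran closest to *Cacul1* (0.998), *Dcaf7* and *Larp1b*.

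The other genes of zinc, copper and manganese handling came from whole families or from background knowledge and were tested in the fit over all genes (quasi-likelihood F test of edgeR, p-values adjusted by Benjamini and Hochberg, called at an adjusted p below 0.05). Of the 41 listed, 28 passed the filter, and 13 did not. In APAP against control 4 rose, 4 fell and 20 did not pass, beside 45.4% of all tested genes called (23.3% higher and 22.1% lower). Their median log2 fold change was -0.01, against -0.0024 over all tested genes. Among the other ZnT genes 4 of 8 were tested. Of those under the filter, *Slc30a7* had a mean of 1.14 FPKM in APAP, 1.15 FPKM in COS+APAP and 0.255 FPKM in control. *Slc30a2*, *Slc30a3* and *Slc30a8* stayed at 0.35 FPKM or less in every library, and *Slc30a3* was lower in APAP (0.065 FPKM) than in control (0.145 FPKM). *Slc30a4*, whose protein loads zinc into vesicles and milk, rose to 2.17 ± 0.467 FPKM in APAP, against 0.81 ± 0.0283 FPKM in control (log2 fold change 1.56 ± 0.21, adjusted p = 0.00386 by edgeR, n = 2 each). *Slc30a6*, of the Golgi pathway, fell (-1.03, adjusted p = 0.00534 by edgeR), while *Slc30a5* (0.29) and *Slc30a9* (-0.06) did not pass. Of the 13 other ZIP genes 8 were tested and 0 were called by edgeR. At an unadjusted p below 0.05 edgeR gave 1, *Slc39a1* (0.36, adjusted p = 0.0569), while DESeq2 called 1 and limma on log2(FPKM + 1) called 0. The importer *Slc39a14* thus had the highest fitted fold change of the tested ZIP genes, a comparison with no test since it was picked for its values.

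**Figure D5:**
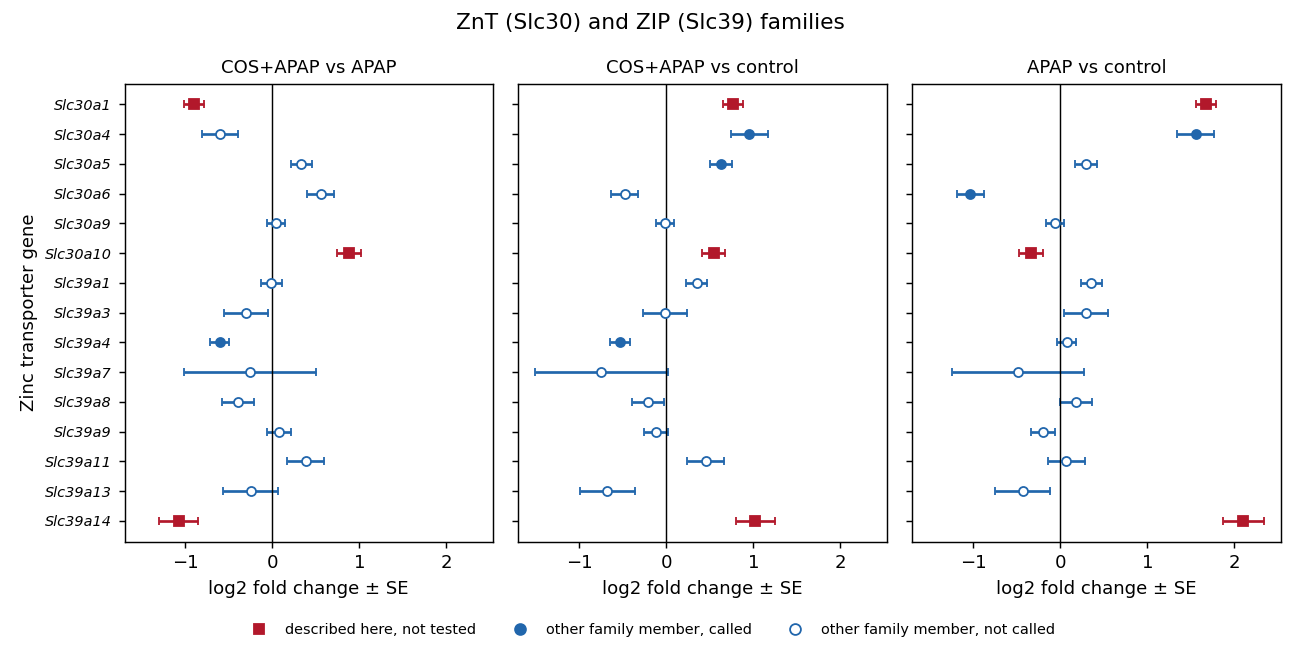
Fitted log2 fold changes with standard errors of the tested ZnT (Slc30) and ZIP (Slc39) genes in 3 comparisons, red squares for the 3 transporters described here without a test, and blue circles for the other family members, filled where called. In APAP against control *Slc30a4* and *Slc30a6* are filled and *Slc39a14* and *Slc30a1* lie furthest to the right.

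Among the copper genes, *Atp7b*, the copper exporter to bile, fell in APAP against control (-1.14 ± 0.15, adjusted p = 0.00337 by edgeR), as did the importer *Slc31a1* (-0.64, adjusted p = 0.013) and the chaperone *Atox1* (-0.52, adjusted p = 0.0288), and the other 5 of 8 tested did not pass. The call of *Slc31a1* was lost without control replicate 1 or APAP replicate 3, and that of *Atox1* without either control replicate or APAP replicate 1, with adjusted p up to 0.114. Of 5 reported MTF1 targets outside the families 4 were tested and 3 rose. *Ndrg1*, a stress-induced gene, rose by 2.13 ± 0.31 (adjusted p = 0.00478 by edgeR), *Csrp1*, of an actin-binding LIM protein, by 1.79 ± 0.18 (adjusted p = 0.00189), and *Hamp*, of the iron hormone hepcidin, by 0.59 ± 0.17 (adjusted p = 0.0354), a call lost without any 1 of the 4 libraries (adjusted p up to 0.146). *Selenow* (-0.15) did not pass and *Pgf* was listed at 0 in all 6 libraries. *Slc40a1* and *Slc39a10*, also reported as MTF1 targets, were kept with the transport genes and are not in these counts. *Slc40a1* did not pass. *Slc39a10* was under the filter, with a mean of 0.175 FPKM in APAP and 0.555 FPKM in control. Of the 4 genes of manganese and divalent metal transport, which include the iron exporter *Slc40a1* (-0.02), 0 passed by edgeR, 0 at an unadjusted p below 0.05, and 0 by DESeq2 or limma, and the same held for these 4 in the other comparisons.

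In COS+APAP against APAP 2 of the 28 tested metal genes rose, 2 fell and 24 did not pass, beside 22.4% of all tested genes called (11.2% higher and 11.1% lower). *Hamp* rose to 2098 ± 368 FPKM in COS+APAP, against 372 ± 49.4 FPKM in APAP (log2 fold change 2.52 ± 0.18, adjusted p = 0.00423 by edgeR), and *Atp7b* rose by 0.91 ± 0.15 (adjusted p = 0.0151). *Csrp1* fell to 2.18 FPKM in COS+APAP, against 6.76 FPKM in APAP (-1.61 ± 0.18, adjusted p = 0.0074 by edgeR), and the intestinal-type importer *Slc39a4* fell by 0.61 ± 0.11 on the log2 scale (adjusted p = 0.0204). *Hamp* and *Csrp1* kept their calls with any 1 of the 4 libraries left out, *Slc39a4* lost its call without any 1 of them (adjusted p up to 0.088), and *Atp7b* lost it without COS+APAP replicate 2, COS+APAP replicate 3 or APAP replicate 1 (up to 0.067). The median log2 fold change was 0.05, against 0.0057 over all tested genes. DESeq2 called 5 higher and 3 lower.

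In COS+APAP against control 5 of the 28 rose, 1 fell and 22 did not pass, beside 21.0% of all tested genes called (10.7% higher and 10.3% lower), with a median log2 fold change of -0.04 against 0.02 over all tested genes. *Hamp* rose by 3.11 ± 0.18 (adjusted p = 0.00227 by edgeR) and kept its call with any 1 library left out. *Ndrg1* (1.39, adjusted p = 0.0317), *Slc30a4* (0.95, adjusted p = 0.0314), *Slc30a5* (0.63, adjusted p = 0.024) and the plasma copper oxidase *Cp* (0.44, adjusted p = 0.0416) rose and *Slc39a4* fell (-0.53, adjusted p = 0.0284). The calls of *Slc30a4*, *Slc30a5*, *Cp* and *Slc39a4* were each lost without any 1 of the 4 libraries (adjusted p up to 0.158 by edgeR), and that of *Ndrg1* without either control replicate or COS+APAP replicate 3 (up to 0.119).

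Genes of the other signals that act on metallothionein genes were listed beside them. Their counts stand against the same shares over all tested genes, 23.3% higher and 22.1% lower in APAP against control, 11.2% and 11.1% in COS+APAP against APAP, and 10.7% and 10.3% in COS+APAP against control. Of 9 glucocorticoid-responsive genes 6 rose and 1 fell in APAP against control (median log2 fold change 1.18), with *Zbtb16* at 3.08 (adjusted p = 0.00167 by edgeR) and *Sgk1* at 2.21 (adjusted p = 0.00276) and the fall in *Tsc22d3* (-1.95, adjusted p = 0.0121), which was lost without APAP replicate 1 (adjusted p = 0.0701). The rise of *Klf9*, another of the 6, was lost without control replicate 3 or APAP replicate 3 (adjusted p up to 0.0704 by edgeR). Between COS+APAP and APAP 1 rose in COS+APAP, *Tsc22d3* (1.55), and 2 fell, *Per1* (-0.86) and *Errfi1* (-0.50), and each of these 3 calls was lost without any 1 library (adjusted p up to 0.182 by edgeR). In COS+APAP against control 7 of the 9 rose (median 1.15), with *Zbtb16* at 3.68, *Fkbp5* at 2.87 and *Tat* at 2.08. Of these 7 calls those of *Klf9* and *Errfi1* were lost without any 1 library, those of *Per1* and *Sgk1* without any of 3 of the 4, and that of *Tat* without control replicate 3 or COS+APAP replicate 3 (adjusted p up to 0.162 by edgeR, and up to 0.0738 for *Tat*), while *Zbtb16* and *Fkbp5* kept theirs. Of 6 NRF2 targets 5 rose in APAP against control (median 2.61), led by *Hmox1* (7.24, adjusted p = 0.000878 by edgeR). The remaining target *Gclm* was lower in APAP (9.68 and 8.78 FPKM) than in control (19.4 and 18.0 FPKM). Its difference (-0.88 ± 0.63) was not called, nor was it in the other comparisons. In COS+APAP against APAP 3 of the 6 fell (median -0.82), with *Hmox1* at -2.54 (adjusted p = 0.00768 by edgeR), *Txnrd1* at -1.29 and *Gclc* at -0.96. *Hmox1* kept that call with any 1 library left out, while *Txnrd1* lost it without either COS+APAP replicate and *Gclc* without COS+APAP replicate 2 or either APAP replicate (adjusted p up to 0.161 by edgeR). The rise of *Srxn1* in APAP (4.04 ± 1.24) was lost without any 1 library (up to 0.172). Set against control, 4 of the 6 rose in COS+APAP (median 1.52), with *Hmox1* at 4.70, and 1 of the 4, *Txnrd1* (1.09), lost its call without any 1 library (up to 0.085). Of 8 regulators, 3 rose in APAP against control, *Socs3*, an interleukin 6 feedback gene (2.44), *Stat3* (1.58) and the receptor gene *Il6ra* (0.90), whose call was lost without APAP replicate 3 (adjusted p = 0.0695 by edgeR). In COS+APAP against APAP *Il6ra* rose (0.79, adjusted p = 0.0409 by edgeR) while *Socs3* fell (-1.60, adjusted p = 0.0375) and *Nfe2l2*, the gene of NRF2, fell (-0.98, adjusted p = 0.018). Between these groups the call of *Il6ra* was lost without any 1 of the 4 libraries (adjusted p up to 0.176), that of *Socs3* without COS+APAP replicate 2 or either APAP replicate (up to 0.148), and that of *Nfe2l2* without COS+APAP replicate 2 or APAP replicate 1 (up to 0.0798). Against control, COS+APAP had a rise in *Il6ra* (1.69) and *Stat3* (1.12) and a fall in *Nfe2l2* (-1.06), of which *Stat3* lost its call without control replicate 3 (adjusted p = 0.0526 by edgeR) and *Nfe2l2* without control replicate 3 or COS+APAP replicate 2 (up to 0.0658). The part of these signals in the metallothionein levels was not tested.

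The extraction text speaks of adipose tissue, but the libraries carried the defining transcripts of liver, with *Alb* at 26619 to 39526 FPKM. Some markers of other cells moved beside *Slc39a14* and *Slc30a1*. In bulk tissue fewer cells of a type and less RNA per cell cannot be told apart. The summed level of 4 monocyte markers was 2.16 to 3.03 FPKM in COS+APAP, 14.7 to 31.9 FPKM in APAP and 1.07 to 1.56 FPKM in control. The rise in APAP was all *Cd14*. *Ly6c2*, *Ccr2* and *Chil3* were under the filter. Their means in APAP were 0.1, 0.075 and 0 FPKM, against 0.12, 0.14 and 0.025 FPKM in control. The summed level of 6 neutrophil markers was 2.52 to 3.90 FPKM in COS+APAP, 10.5 to 31.8 FPKM in APAP and 4.06 to 6.68 FPKM in control. *S100a9* was called higher in APAP than in control (2.19) and lower in COS+APAP than in APAP (-2.76). It had 18.1 FPKM in APAP library 1 and 5.6 FPKM in APAP library 3. *S100a8* and *Retnlg* were not called in any comparison. *Csf3r* and *Cxcr2* were under the filter, and *Ly6g* was at 0 in all 6 libraries. The 5 erythroid markers summed to 309 to 316 FPKM in COS+APAP, 1075 to 1492 FPKM in APAP and 269 to 297.5 FPKM in control. Most of this sum was globin genes, and the remaining marker *Alas2* was not called in any comparison (0.20 for APAP over control). The 8 markers of pericentral hepatocytes summed to 2747 to 3335 FPKM in COS+APAP, 902 to 1309 FPKM in APAP and 2563 to 3298 FPKM in control. Most of this sum was *Cyp2e1*, at 2265 to 2773 FPKM in COS+APAP, 816 to 1189 FPKM in APAP and 1644 to 2360 FPKM in control. APAP was lowest in the sum, as in *Slc30a10*, and COS+APAP overlapped control. *Cyp1a2*, *Glul*, *Oat* and *Lgr5* did not overlap there and were lower in COS+APAP than in control. Of the 6 tested markers *Cyp1a2* alone was called lower in COS+APAP than in control (-1.10, adjusted p = 0.00936 by edgeR). All 6 were called lower in APAP than in control, beside 22.1% of all tested genes. All 6 were also called higher in COS+APAP than in APAP, beside 11.2% of all tested genes. The 7 Kupffer cell markers summed to 98.0 to 103 FPKM in COS+APAP, 90.3 to 128 FPKM in APAP and 82.1 to 92.0 FPKM in control. They did not move together. *Marco* was called higher for APAP over control (1.00), COS+APAP over APAP (0.62) and COS+APAP over control (1.62). *Cd5l* was called higher in APAP than in control (0.73), and *Adgre1* lower in COS+APAP than in APAP (-1.64). *Clec4f*, *Vsig4*, *Timd4* and *C1qa* were not called in any comparison. The 5 sinusoidal endothelial markers summed to 12.2 to 14.1 FPKM in COS+APAP, 27.0 to 28.9 FPKM in APAP and 21.65 to 25.9 FPKM in control. *Lyve1* alone was called for APAP over control (2.93), and *Fcgr2b* was negative (-0.30). In COS+APAP against APAP all but *Stab2* (0.03) were called lower, beside 11.1% of all tested genes. The 5 stellate markers summed to 13.2 to 17.95 FPKM in COS+APAP, 37.7 to 40.55 FPKM in APAP and 32.6 to 33.25 FPKM in control. *Dcn* (0.53) was called higher in APAP than in control, *Colec11* (0.33) was not, and both were called lower in COS+APAP than in APAP. *Lrat*, under the filter, was lower in APAP (0.54 FPKM) than in control (1.755 FPKM), unlike *Reln* and *Des*. The 4 cholangiocyte markers summed to 2.01 to 3.12 FPKM in COS+APAP, 5.93 to 11.2 FPKM in APAP and 2.99 to 3.97 FPKM in control. Among them *Sox9* was called lower in COS+APAP than in APAP (-1.83) and higher in APAP than in control (3.07). *Krt19* was not called in any comparison (-0.13 for APAP over control). *Krt7* and *Epcam* were under the filter. *Krt7* had a mean of 0.29 FPKM in both APAP and control, and *Epcam* 1.425 FPKM in APAP and 0.59 FPKM in control. The 6 periportal hepatocyte markers summed to 1807 to 1830.4 FPKM in COS+APAP, 1696 to 1997 in APAP and 1102 to 1552 FPKM in control. Of these, *Cyp2f2* was called lower in COS+APAP than in APAP (-1.16) and higher in APAP than in control (1.05). *Sds* was instead called higher in COS+APAP than in either APAP (1.27) or control (2.01). For APAP over control *Sds* was not called (0.75). *Cps1* was called higher for APAP over control (1.11) and for COS+APAP over control (0.91), but not for COS+APAP over APAP (-0.20). *Pck1*, *Hal* and *Gls2* were not called in any comparison. The 4 lymphocyte markers summed to 0.28 to 0.40 FPKM in COS+APAP, 0.67 to 0.69 FPKM in APAP and 0.98 to 1.12 FPKM in control. The part of these cells in the levels of the 6 genes was not tested.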

How the data were processed

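The submitters' processing notes name HISAT2 2.0 and StringTie 1.3.0, and no genome build, which is thus not given in the sources used. Coordinates are those of the deposited table, which for 5 of the 6 genes and 86.9% of 55141 shared gene identifiers are identical to GENCODE M21 (GRCm38). The authors deposited estimated counts and FPKM values for each gene in each library, per the file headers. The estimated counts were whole already and totalled 71115112 to 76669799 per library, with small values most frequent at 4 (766 to 990 genes), so a fragment was taken as about 4 counts. 6 further columns matched no sample, were seen when the file was opened, and entered no value.

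Genes whose mean reached 1 FPKM were tested with edgeR 4.0.16 (R 4.3.3): TMM scaling, quasi-likelihood F test, two-sided, 1 model of the 3 groups over 6 libraries (3 residual degrees of freedom), Benjamini-Hochberg adjustment over 10051 genes. The SE of a log2 fold change is its size over the square root of F. Code was tested on simulated counts. DESeq2 1.42.0, limma 3.58.1 on log2(FPKM + 1) or log2(FPKM + 0.1), other scaling, filters, count scale and leaving out each library were the alternatives. The genes and lists were chosen with earlier results of these data known. Named were the called genes of each list with the largest fold changes (up to 4 for metal lists, up to 3 for the others) and, for likeness, the highest Pearson r. Neighbours of *Mt1* and *Mt2*, overlapping genes, and genes named for not passing, for a lost call or as a marker were added after their values were seen. Promoters are RefSeq's (GRCm38.p6), matched by symbol for 5 of the 6 genes. Transcript stretches were compared at 31 bases on both strands.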

Additional observations from a re-analysis of the deposited data

How the results depend on the processing

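Across the alternatives, 213 of 216 recomputed log2 fold changes of the 6 genes kept their sign. The exceptions were the small differences of *Mt1* between COS+APAP and APAP and of *Mtf1* between COS+APAP and control given above. Of the 216 values 40 moved by more than the SD between replicates. With limma on log2(FPKM + 1), COS+APAP over control was 0.31 for *Slc30a10* and 0.50 for *Slc30a1*, against 0.54 and 0.77 by edgeR, and that scale understates low genes. With it *Mtf1* was 0.07 for APAP over control and -0.20 for COS+APAP over APAP, and at a pseudocount of 0.1 0.12 for APAP over control and -0.23 for COS+APAP over control. DESeq2 called 3552 genes in COS+APAP against APAP and 3421 in COS+APAP against control, where edgeR called 2249 and 2109, and it called 5 metal genes higher in the first and 2 lower in the second. Without a filter on low values 7 metal genes were called higher in APAP against control and 0 lower in COS+APAP against control (edgeR, where 1 was called with the filter). At a mean of at least 5 FPKM the calls were 2301 genes in APAP against control (4561 at 1 FPKM), with 2 metal genes higher and 2 lower, 1093 in COS+APAP against APAP, with 1 and 1, and 1295 in COS+APAP against control, with 2 higher, as fewer genes were tested. In COS+APAP against control limma called 1 metal gene higher and 2 lower under either pseudocount, and a fit of these groups alone called 3 higher. Leaving out 1 library gave 3033 to 3577 called genes in APAP against control, 612 to 1297 in COS+APAP against APAP, and 590 to 1211 in COS+APAP against control, and 3 to 4 metal genes higher and 3 lower in the first, 1 to 2 higher and 1 to 2 lower in the second, and 1 to 2 higher and 0 to 1 lower in the third. The cause was not tested. limma on FPKM moved the median log2 fold change over all genes to -0.10 (APAP) and -0.11 (COS+APAP) against control at a pseudocount of 1. Control and APAP share the numbers 1 and 3, which the labels do not call pairs. The differences between replicates 3 and 1 correlated at r = 0.02 over 10051 genes. With the replicate number as a block 3334 genes were called in APAP against control, with 3 metal genes higher and 3 lower. No paired analysis was possible for COS+APAP because it shares only 1 number with each other group. Low counts of *Mt2* in control limit the precision of its fold change.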
